A study of Homo sapiens with 12 samples.

Results

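The response of control adipocytes to lipopolysaccharide (LPS), the cell wall component of Gram-negative bacteria, was measured by RNA-seq in 6 of the 12 libraries of the series. Adipocytes carrying scramble shRNA and given LPS (3 libraries) were compared with adipocytes carrying scramble shRNA and given none (3 libraries). The libraries were taken by their labels and not by any measured value. The cells were ASC52telo hTERT, human adipose-derived mesenchymal stem cells from ATCC that were immortalized with telomerase. All groups had been transduced with the lentiviral vector pLVX-shRNA2, expanded, and sorted for its ZsGreen reporter. Both groups received 7 days of differentiation medium with insulin, dexamethasone, isobutylmethylxanthine, rosiglitazone, pantothenate and biotin. They then received 7 days of maintenance medium with insulin, dexamethasone, pantothenate and biotin. On day 14 the LPS group was given 100 ng/mL LPS for 4 h. The other 6 libraries came from the same line with shRNA against linc-ADAIN, a long intergenic noncoding RNA (KD), 3 with LPS and 3 without. These KD libraries were used to read the same genes in separate samples. They were also used to test whether the LPS effect differed between the shRNAs, and in an alternative fit on all 12 libraries. The model is 1 immortalized line, dexamethasone was present in both groups, and the 3 libraries of a group are replicates of 1 experiment. The p-values therefore measure the spread between these cultures.

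LPS is bound by CD14 and MD-2 and recognized by the receptor TLR4, which signals through MYD88 and the IRAK kinases to the NF-kB transcription factors and the MAP kinases. A second branch through TRIF leads to interferon-stimulated genes. NF-kB proteins are dimers held in the cytoplasm by inhibitors such as NFKBIA, and they switch on chemokines, cytokines, adhesion molecules and their own inhibitors. Adipocytes and their stromal precursors respond to LPS, and inflamed adipose tissue secretes chemokines that draw neutrophils and monocytes.

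Counts on named genes totalled 48.1 to 53.8 M (units of 1e6) per library without LPS and 31.5 to 44.5 M with LPS, so that every LPS library was shallower than every library without it. The 100 genes with the most counts held 29.6% to 30.7% of a library without LPS and 32.1% to 33.0% of one with LPS. Correlations of log2 CPM were 0.980 to 0.983 within the group without LPS, 0.970 to 0.974 within the LPS group and 0.968 to 0.974 between them. CPM here are counts per 1000000 after TMM scaling, which evens out library size and composition but not gene length, so levels of different genes are not compared.

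The adipocyte markers FABP4, ADIPOQ, PLIN1, PPARG, LIPE and CEBPA were all present. FABP4, the fatty acid carrier, had 1697, 1840.4 and 2186 CPM in the 3 libraries without LPS and 1950.1, 1906 and 1889 CPM with LPS, and ADIPOQ (adiponectin) had 703, 853 and 1101 against 956, 1287 and 1120.0 CPM. The groups overlapped for both genes. LPL (lipoprotein lipase), which mature adipocytes normally express, was at 0.42, 0.37 and 0 CPM without LPS and at 0, 0.16 and 0 CPM with it, and the insulin-responsive glucose transporter SLC2A4 was below 0.34 CPM in all 6 libraries. Of the 8 adipocyte markers 0 passed edgeR's test in either direction (1 higher and 0 lower at an unadjusted p under 0.05, 0 at DESeq2's adjusted p). Their summed level was 2753 to 3856 CPM without LPS and 3292 to 3731 CPM with it. The 7 stromal markers tested were also abundant, at 2882 to 2950 CPM in sum without LPS and 2634 to 2832 CPM with LPS. Of these, PDGFRB, a receptor of pericytes and stromal cells, fell, with a log2 fold change (LPS against none) of -0.58 ± 0.081 (SE), edgeR adjusted p = 0.00058, and 1 marker rose. In bulk RNA, fewer cells of a type and less RNA per cell cannot be told apart.

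A gene was counted as changed when its adjusted p was under 0.05 and the groups differed at least 2-fold. By that rule 223 of 15920 tested genes rose (1.4%) and 203 fell (1.28%). At the adjusted p alone, 940 genes rose (5.9%) and 1334 fell (8.38%). Without scramble replicate 2 these 2 counts were 474 and 713, and without scramble_LPS replicate 3 the first was 558, while the counts by the 2-fold rule stayed within 1.5 times with any library left out. Most changes were moderate. Among the 223 genes that rose, 176 lay between 2-fold and 4-fold, 30 between 4-fold and 8-fold and 17 above 8-fold, with a median of 2.69-fold. Among the 203 that fell, the same counts were 167, 22 and 14, with a median of 2.61-fold. The genes that rose started from a median of 6.44 CPM and reached 18.6 CPM, while those that fell went from 16.3 to 6.60 CPM. In all, the rising genes gained 15193 CPM and the summed level of the falling genes decreased by 14914 CPM. Among the genes that rose, SOD2, the mitochondrial superoxide dismutase, gained the most counts, going from 867 ± 89.2 to 4509 ± 248 CPM (mean ± SD, n = 3). The expression groups did not overlap for 219 of the 223 and 201 of the 203 genes, where over all tested genes 15% lay wholly higher and 17% wholly lower with LPS. The smallest two-sided p that an exact permutation test of 3 against 3 libraries can give is 0.1, so single genes were tested only in the fit across all genes. The counts in gene lists below stand against the shares of all tested genes given here.

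**Figure D1:**
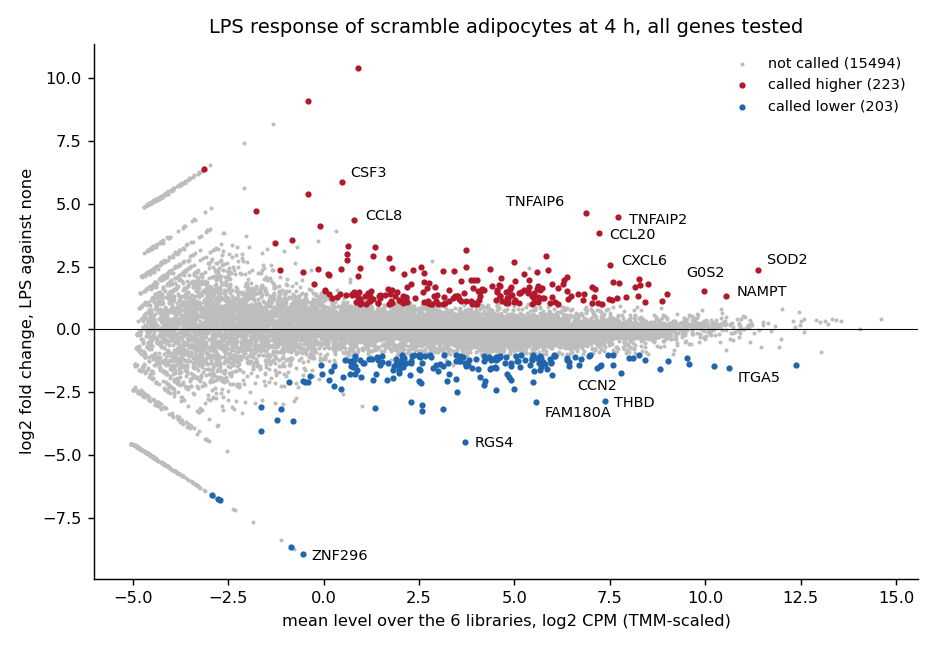
Each point is 1 of the 15920 genes tested, with its mean log2 CPM on the x axis and its log2 fold change (LPS minus none, edgeR) on the y axis. Coloured points are the 223 genes that rose and the 203 that fell, which lie on both sides of 0 across the range of levels.

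The NF-kB subunits were among the genes that rose. Of 5 subunit genes 4 passed the 2-fold rule, with a list median log2 fold change of 1.29 against 0.02 for all genes tested. NFKB2, the p100/p52 subunit, had 32.9, 33.3 and 27.8 CPM without LPS and 114, 157 and 129 CPM with it, a log2 fold change of 2.09 ± 0.12 (SE), edgeR adjusted p = 6.7e-07. REL (c-Rel) went from 14.7, 18.0 and 17.9 to 60.2, 76.4 and 64.1 CPM, with a log2 fold change of 1.99 ± 0.12 (SE), edgeR adjusted p = 8.1e-07. In both genes the lowest LPS library lay over 3 times above the highest library without LPS. NFKB1 (p105/p50) rose by 1.29 and RELB by 1.21 on the log2 scale. RELA, the p65 subunit, was the exception, at 74.8, 79.9 and 68.1 CPM without and 56.2, 81.0 and 70.4 CPM with LPS, overlapping groups and a log2 fold change of -0.10 ± 0.12 (SE), edgeR adjusted p = 0.65.

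Most inhibitors that NF-kB induces rose too. Of 12 feedback inhibitors tested, 7 rose by the 2-fold rule and 9 at the adjusted p alone, and 0 fell (1 at an unadjusted p under 0.05 in edgeR, 1 at DESeq2's adjusted p). ZC3H12A (Regnase-1), a ribonuclease that degrades inflammatory mRNAs, was at 12.2, 13.7 and 13.6 CPM without LPS and 84.0, 118 and 98.1 CPM with LPS, a log2 fold change of 2.93 ± 0.12 (SE), edgeR adjusted p = 1.2e-07. TNFAIP3 (A20), the ubiquitin-editing enzyme that ends NF-kB signalling, went from 84.3, 91.9 and 101 to 300.4, 365 and 346 CPM, a log2 fold change of 1.87 ± 0.096 (SE), edgeR adjusted p = 3.3e-07. The LPS libraries lay well clear of the others for both. The A20-binding proteins TNIP3 and TNIP1 rose by 2.36 and 1.70, the atypical inhibitors NFKBIZ and BCL3 by 1.81 and 1.35, and NFKBIA, the classical inhibitor, by 1.17 (log2). The deubiquitinase CYLD rose by less than 2-fold, with a log2 fold change of 0.58 ± 0.10 (SE), edgeR adjusted p = 0.0025.

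At the start of the pathway genes moved both ways. Of 26 genes for the LPS receptor and its adaptors, 6 rose and 4 fell at the adjusted p alone. Over all tested genes, 5.9% rose and 8.38% fell by that measure. Only CD14 passed the 2-fold rule, downward, and the list median log2 fold change was 0.16. TLR4 itself fell, from 15.7, 14.5 and 11.1 CPM without LPS to 8.81, 7.18 and 7.02 CPM with it, a log2 fold change of -0.84 ± 0.16 (SE), edgeR adjusted p = 0.0045, with no overlap. CD14, the LPS co-receptor, was near the detection limit at 1.37, 0.97 and 1.31 against 0.22, 0.45 and 0.34 CPM, and its log2 fold change of -1.85 ± 0.49 (SE), edgeR adjusted p = 0.026, was no longer called without any 1 of 5 of the libraries (adjusted p up to 0.11). IRAK3, an IRAK family member that dampens TLR signalling, rose by 0.63 (log2), and the adaptor MYD88 had a log2 fold change of -0.18 ± 0.081 (SE), edgeR adjusted p = 0.18.

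The 6 neutrophil-attracting CXC chemokines all rose by the 2-fold rule, with a median log2 fold change of 1.92. Their genes lie in 1 cluster on chromosome 4 (GRCh38, GENCODE annotation). CXCL8 lies at chr4:73740519-73743716, CXCL6 at chr4:73836640-73849064 and CXCL1 at chr4:73869393-73871308 on the plus strand, and CXCL5 at chr4:73995642-73998677, CXCL3 at chr4:74036589-74038807 and CXCL2 at chr4:74097040-74099196 on the minus strand. The stretches below are from the RefSeq promoters (GRCh38.p14), read 5′ to 3′ along each gene's strand, and are shown because 5 of the 6 promoters hold the same letters. Capitals mark 2 overlapping matches to the NF-kB consensus, 1 on each strand and 1 base apart. The stretches span chr4:73869279-73869359 for CXCL1 and chr4:73836553-73836633 for CXCL6 on the plus strand, and chr4:74099228-74099308 for CXCL2, chr4:74038723-74038803 for CXCL3 and chr4:73998723-73998803 for CXCL5 on the minus strand.
CXCL1: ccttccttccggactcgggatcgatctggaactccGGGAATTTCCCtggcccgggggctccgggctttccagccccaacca
CXCL2: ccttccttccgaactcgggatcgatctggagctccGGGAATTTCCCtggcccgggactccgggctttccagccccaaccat
CXCL3: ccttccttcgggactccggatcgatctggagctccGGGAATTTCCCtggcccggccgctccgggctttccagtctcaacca
CXCL5: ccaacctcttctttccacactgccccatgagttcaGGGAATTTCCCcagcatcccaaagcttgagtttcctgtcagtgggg
CXCL6: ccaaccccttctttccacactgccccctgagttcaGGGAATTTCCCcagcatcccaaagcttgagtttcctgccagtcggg
Relative to the RefSeq start of each gene, all 5 stretches lie upstream, with first bases -114, -113, -114, -126 and -125 in the order shown. GENCODE starts CXCL3 further upstream than RefSeq, so that by the GENCODE coordinates given for CXCL3 its stretch lies inside the gene. The letters around the match are nearly the same in CXCL1, CXCL2 and CXCL3, and again in CXCL5 and CXCL6. The window of CXCL8 held no match to the consensus.

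CXCL6 had the largest rise of the cluster, from 59.4, 53.0 and 45.0 CPM without LPS to 356, 266 and 313 CPM with it, a log2 fold change of 2.57 ± 0.13 (SE), edgeR adjusted p = 2.4e-07. CXCL5 went from 137, 120.2 and 108 to 530.4, 439.9 and 500.2 CPM, a log2 fold change of 2.01 ± 0.10 (SE), edgeR adjusted p = 3.6e-07. CXCL8 (interleukin-8) went from 118, 146 and 143 to 424, 415 and 479 CPM, a log2 fold change of 1.69 ± 0.098 (SE), edgeR adjusted p = 6.7e-07. For all 3 the groups were far apart. CXCL1 went from 81.0, 85.6 and 76.9 to 299, 301 and 296 CPM with a standard error of only 0.074 on its log2 fold change of 1.88, while CXCL2 rose by 1.95 and CXCL3 by 1.63 (log2). CXCL1, CXCL2 and CXCL3 are close paralogs, as are CXCL5 and CXCL6, and reads that match several of them were split by kallisto's model, so the values within each group of paralogs are less certain than their sum.

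Of 9 CC chemokines tested, which attract monocytes and lymphocytes, 4 rose by the 2-fold rule and 0 fell (0 at an unadjusted p under 0.05 in edgeR, 0 at DESeq2's adjusted p). CCL20, the ligand of CCR6, was at 15.5, 18.9 and 24.1 CPM without LPS and 221, 298 and 311 CPM with LPS, a log2 fold change of 3.83 ± 0.17 (SE), edgeR adjusted p = 1.5e-07. CCL2 (MCP-1), the main monocyte attractant of adipose tissue, went from 92.3, 169 and 161 to 401, 523 and 536 CPM, a log2 fold change of 1.79 ± 0.20 (SE), edgeR adjusted p = 9.2e-05. CCL8 rose by 4.37 and CCL5 by 3.01 (log2), both from under 0.4 CPM. Of 5 other CXC and CX3C chemokines only the membrane-bound CX3CL1 passed, by either rule. It went from 0.13, 0.33 and 0.37 to 1.34, 3.62 and 3.46 CPM, a log2 fold change of 3.34 ± 0.52 (SE), edgeR adjusted p = 0.0011. CCL19, a ligand of CCR7 that was outside the list and named by the size of its rise, had 3, 13 and 0 counts without LPS and 27, 78 and 93 counts with LPS, with a log2 fold change of 4.11 ± 0.89 (SE), edgeR adjusted p = 0.0096, and 5.80 without scramble replicate 2. CXCL10, an interferon-induced chemokine, had 0 counts in the 3 libraries without LPS and 5, 2 and 4 counts with it, and did not pass the test (adjusted p = 0.14, edgeR).

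Among 15 cytokines and colony-stimulating factors tested, 7 rose and 2 fell by the 2-fold rule. CSF3 (G-CSF), which drives neutrophil production, was nearly silent without LPS, with 7, 0 and 0 counts, and had 127, 102 and 77 counts with it, a log2 fold change of 5.87 ± 0.83 (SE), edgeR adjusted p = 0.00059. All its counts without LPS came from scramble replicate 1, and without that library the fitted log2 fold change of CSF3 was 9.90, a value set against 0 counts. IL6 went from 44.8, 52.9 and 54 CPM to 116, 136 and 133 CPM, a log2 fold change of 1.34 ± 0.096 (SE), edgeR adjusted p = 3.5e-06, and LIF, another ligand that signals through gp130, rose by 1.61 (log2). IL1B rose from 0.64, 0.86 and 1.72 to 4.18, 5.70 and 7.77 CPM, a log2 fold change of 2.46 ± 0.37 (SE), edgeR adjusted p = 0.00088. Each of these 4 genes was higher in every LPS library than in any library without LPS. The epithelial-type cytokine TSLP rose by 1.47 (log2), and CSF1, the macrophage growth factor, rose by 0.77, which is less than 2-fold. IL7 and IL32 were under 3.1 CPM in all libraries, and their calls were lost without scramble_LPS replicate 3 for IL7 (adjusted p = 0.058) and without any 1 of 5 libraries for IL32 (up to 0.11). IL11 and IL12A fell by 1.23 and 1.47 on the log2 scale at under 4 CPM, and both calls were lost without single libraries (adjusted p up to 0.22 and 0.14). TNF had 5, 1 and 11 counts without LPS and 5, 12 and 10 with it, and its log2 fold change of 1.11 ± 1.17 (SE), edgeR adjusted p = 0.61 did not pass the test.

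The receptors moved both ways. Of 20 cytokine receptors and antagonists, 3 rose and 3 fell by the 2-fold rule, and 8 rose and 6 fell at the adjusted p alone. Over all tested genes, 1.4% rose and 1.28% fell by the first rule, and 5.9% rose and 8.38% fell by the second. IFNGR2, a chain of the interferon-gamma receptor, went from 53.6, 56.4 and 55.3 to 137, 147 and 154 CPM, a log2 fold change of 1.41 ± 0.075 (SE), edgeR adjusted p = 4.5e-07. IL7R and IFNAR2, a chain of the type I interferon receptor, rose by 1.25 and 1.11 (log2). IL1RN, the secreted antagonist of interleukin-1, fell from 82.9, 84.4 and 62.8 to 25.2, 21.0 and 28.9 CPM, a log2 fold change of -1.61 ± 0.14 (SE), edgeR adjusted p = 1.3e-05. IL1B and IL1RN, the agonist and its antagonist, thus moved in opposite directions without overlap in either gene. IL13RA2, a decoy receptor of interleukin-13, fell by 1.31, and IL6R by 1.05 (log2), the latter no longer called without any 1 of 3 libraries (adjusted p up to 0.089).

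**Figure D2:**
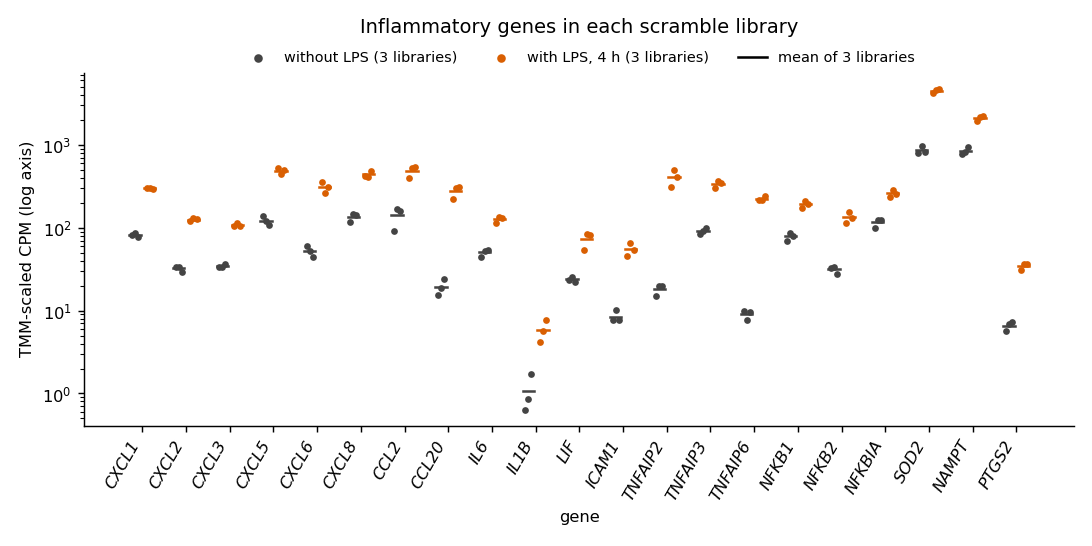
TMM-scaled CPM on a log axis for inflammatory genes, with 1 point for each of the 3 libraries without LPS and the 3 with LPS and a line at each group mean. The 3 LPS libraries lie above the 3 others in every gene plotted, by the widest margin in TNFAIP2 and TNFAIP6.

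Genes first known for their induction by TNF were among the 15 largest rises. TNFAIP6 (TSG-6), a secreted hyaluronan-binding protein that restrains inflammation, was at 9.95, 7.73 and 9.68 CPM without LPS and 216, 218 and 241 CPM with it, a log2 fold change of 4.63 ± 0.11 (SE), edgeR adjusted p = 1.2e-09. TNFAIP2 went from 15.1, 19.7 and 19.9 to 309.9, 494 and 411 CPM, a log2 fold change of 4.47 ± 0.17 (SE), edgeR adjusted p = 7.1e-08. TNFAIP6 was the gene with the smallest adjusted p among those named here, and in both genes LPS libraries exceeded the others by over 10-fold. Of 23 genes of the TNF superfamily and cell survival, 6 rose and 1 fell by the 2-fold rule, against 1.4% and 1.28% of all tested genes. The death-blocking genes TNFAIP8, BIRC3 (cIAP2) and CFLAR (c-FLIP) rose by 2.36, 1.89 and 1.22 (log2), as did TRAF1 by 1.57. BCL2A1 had 0, 2 and 11 counts without LPS and 34, 39 and 45 with it, and its call was lost without any 1 of 4 libraries (adjusted p up to 0.11). TNFRSF12A (Fn14), the receptor of TWEAK, was the member that fell, from 231, 239 and 207 to 81.7, 87.5 and 81.5 CPM, a log2 fold change of -1.43 ± 0.080 (SE), edgeR adjusted p = 6.0e-07.

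The adhesion molecules that leukocytes bind rose in 2 of 10 genes by the 2-fold rule, against 1.4% of all tested genes. ICAM1, a ligand of leukocyte integrins, was at 7.64, 10.1 and 7.67 CPM without LPS and 45.5, 65.3 and 54.4 CPM with LPS, a log2 fold change of 2.70 ± 0.15 (SE), edgeR adjusted p = 6.1e-07. VCAM1 went from 0.35, 0.66 and 0.70 to 3.78, 4.36 and 4.79 CPM, a log2 fold change of 2.92 ± 0.33 (SE), edgeR adjusted p = 0.00010. Neither gene's groups overlapped.

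Of the secreted innate proteins, PTX3, the long pentraxin, rose from 2428, 3307 and 3162 to 4662, 5446 and 5643 CPM, a log2 fold change of 0.82 ± 0.12 (SE), edgeR adjusted p = 0.00061, which is under 2-fold. SAA1, an acute-phase apolipoprotein, had 56.7, 74.2 and 91.3 CPM without and 49.2, 71.2 and 67.6 CPM with LPS and did not pass the test (log2 fold change -0.24, adjusted p = 0.40, edgeR). Of 12 acute-phase genes only TNFAIP6 passed the 2-fold rule, upward, against 1.4% of all tested genes. Complement factor B (CFB) was the only 1 of 15 complement genes to do so, at 11.4, 14.2 and 14.8 CPM without LPS and 42.0, 74.5 and 69.9 CPM with it, a log2 fold change of 2.21 ± 0.19 (SE), edgeR adjusted p = 1.5e-05, whereas C3 had 551, 719 and 457 and 367, 567 and 446 CPM in overlapping groups.

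In the prostaglandin pathway 2 of 13 genes rose by the 2-fold rule, against 1.4% of all tested genes. PTGS2 (COX-2), the inducible cyclooxygenase, went from 5.6, 6.98 and 7.22 to 30.6, 36.6 and 36.8 CPM, a log2 fold change of 2.39 ± 0.13 (SE), edgeR adjusted p = 4.6e-07. The prostaglandin F receptor PTGFR rose by 1.48, and PTGES, the inducible prostaglandin E synthase, by 0.93 (log2), just under 2-fold.

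SOD2, which turns mitochondrial superoxide into hydrogen peroxide, had 803, 969 and 829 CPM without LPS and 4248, 4539 and 4741 CPM with it, a log2 fold change of 2.38 ± 0.093 (SE), edgeR adjusted p = 7.1e-08, with the groups over 4-fold apart. Of 17 antioxidant and metal-binding genes 3 rose by the 2-fold rule, and 10 rose and 1 fell at the adjusted p alone. Over all tested genes, 1.4% rose by the 2-fold rule, and 5.9% rose and 8.38% fell at the adjusted p alone. The zinc importer SLC39A14 (ZIP14) went from 253, 316 and 267 to 659.8, 781 and 792 CPM, a log2 fold change of 1.42 ± 0.10 (SE), edgeR adjusted p = 3.8e-06, and the metallothionein MT1X rose by 1.24 (log2). MT2A and FTH1, the ferritin heavy chain, rose by 0.81 and 0.68. Metallothionein genes are near-identical copies, so their reads may be divided among them.

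Of 33 interferon-stimulated genes 5 rose by the 2-fold rule, which 1.4% of all tested genes did, 8 rose at the adjusted p alone (5.9% of all genes), and 0 fell (0 at an unadjusted p under 0.05 in edgeR, 0 at DESeq2's adjusted p), with a list median log2 fold change of 0.37 and 15 of the 33 wholly higher with LPS (15% of all genes). IRF1, a transcription factor induced by both interferon and NF-kB, was at 8.52, 11 and 9.75 CPM without LPS and 29.2, 36.3 and 31.8 CPM with it, a log2 fold change of 1.73 ± 0.13 (SE), edgeR adjusted p = 3.9e-06. IFIT2, IFIT3 and IRF2 rose by 1.5, 1.46 and 1.38 (log2), and the RNA sensor DDX58 (RIG-I) by 1.01. MX1, a classical antiviral target of type I interferon, was at 0.91, 1.33 and 1.26 CPM without and 0.45, 0.80 and 1.07 CPM with LPS, with overlapping groups, and RSAD2 (viperin) had 0 counts without LPS and 1, 5 and 25 counts with it (adjusted p = 0.064, edgeR).

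Immediate-early genes, which answer stimuli within the first hour, differed in direction at 4 h, the only time measured here. Of 17 tested, 6 rose and 7 fell at the adjusted p alone, against 5.9% and 8.38% of all tested genes. The orphan nuclear receptors NR4A1 and NR4A3 were the 2 that passed the 2-fold rule. NR4A1 went from 24.9, 26.7 and 33.7 to 60.2, 77.2 and 69.4 CPM, a log2 fold change of 1.28 ± 0.13 (SE), edgeR adjusted p = 4.0e-05, and NR4A3 rose by 1.18 (log2). ATF3 rose by 0.88, while EGR1, FOSB and FOSL1 fell by 0.76, 1.00 and 0.55 (log2). Of 11 MAP kinase feedback phosphatases and Sprouty genes, 5 fell at the adjusted p alone and 0 rose (0 at an unadjusted p under 0.05 in edgeR, 0 at DESeq2's adjusted p). SPRY2, an inhibitor of growth factor signalling, fell from 133, 134 and 115 to 44.4, 41.7 and 51.1 CPM, a log2 fold change of -1.47 ± 0.097 (SE), edgeR adjusted p = 2.2e-06, and DUSP2 fell by 1.33 (log2).

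The promoter windows, from 250 bases before to 50 after each RefSeq start, could be read for 177 of the genes that rose, 152 of those that fell and 11860 of all genes tested. The NF-kB consensus occurred, on either strand, in 40 (22.6%), 26 (17.1%) and 1520 (12.8%) of these windows. The interferon-stimulated response element, also searched on both strands, occurred in 9 (5.08%), 2 (1.32%) and 364 (3.07%). These shares are descriptions of the windows without a test, and a match does not show that a factor binds. The NF-kB match was present in 5 of the 7 feedback inhibitors that rose, NFKBIA among them, and in CCL20 and IL6. Stretches of these 3 are shown with the match in capitals, because each is a gene of a different role that rose, at chr14:35404786-35404865 on the minus strand for NFKBIA and at chr2:227813728-227813807 and chr7:22727092-22727171 on the plus strand for CCL20 and IL6 (GRCh38.p14).
NFKBIA: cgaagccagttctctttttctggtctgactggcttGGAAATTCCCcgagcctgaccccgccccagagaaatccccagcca
CCL20: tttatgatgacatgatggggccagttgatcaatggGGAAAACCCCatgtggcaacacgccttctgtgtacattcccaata
IL6: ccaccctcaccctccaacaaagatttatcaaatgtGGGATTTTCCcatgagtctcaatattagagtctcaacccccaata

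Several genes outside the inflammatory lists were among the 15 with the largest rises. The epithelial ETS factor ELF3 had 0, 3 and 2 counts without LPS and 33, 85 and 37 with it, a ratio of summed counts, scaled for library size, of 42.4 with an exact 95% interval of 17.8 to 132 that covers counting error only. ADORA2A, an adenosine receptor, went from 0.44, 0.82 and 0.17 to 5.62, 4.97 and 3.35 CPM, a log2 fold change of 3.27 ± 0.46 (SE), edgeR adjusted p = 0.00058, or 3.91 without scramble replicate 2. ELOVL7, a fatty acid elongase, went from 0.51, 0.55 and 1.33 to 6.0, 6.25 and 4.97 CPM, a log2 fold change of 2.86 ± 0.36 (SE), edgeR adjusted p = 0.00024, and RNF144B, a ubiquitin ligase, rose by 2.75 (log2). None of these 4 genes had overlapping groups, and all were low without LPS.

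In the adipocyte programme a few genes changed at 4 h. Of 17 adipogenic transcription factors 4 rose by the 2-fold rule and 0 fell (1 at an unadjusted p under 0.05 in edgeR, 0 at DESeq2's adjusted p). CEBPD, an early adipogenic and acute-phase factor, had 60.9, 62.9 and 59.4 CPM without LPS and 154, 191 and 147 CPM with it, a log2 fold change of 1.42 ± 0.099 (SE), edgeR adjusted p = 3.0e-06. KLF5, STAT5A and KLF15 rose by 2.13, 1.20 and 1.00 (log2). PPARG, the master regulator of adipocytes, had a log2 fold change of 0.15 ± 0.086 (SE), edgeR adjusted p = 0.31, and CEBPA of 0.21 ± 0.14 (SE), edgeR adjusted p = 0.39.

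Among the lipid genes, regulators of lipolysis changed in both directions. G0S2, the inhibitor of adipose triglyceride lipase, rose from 597, 419 and 536 to 1496, 1537 and 1400.1 CPM, a log2 fold change of 1.51 ± 0.12 (SE), edgeR adjusted p = 5.9e-06. ABHD5, the activator of the same lipase, fell from 129.6, 115 and 112 to 78.5, 65.6 and 73.1 CPM, a log2 fold change of -0.72 ± 0.089 (SE), edgeR adjusted p = 0.00023. ANGPTL4, a secreted inhibitor of lipoprotein lipase, fell from 449, 421 and 368 to 174, 229 and 204 CPM, a log2 fold change of -1.03 ± 0.11 (SE), edgeR adjusted p = 6.7e-05. None of the 3 had overlapping groups. PLIN2, a lipid droplet coat protein, fell by 0.48, and GPAM, the first enzyme of triglyceride synthesis, rose by 0.46 (log2). PLIN1 and LIPE had log2 fold changes of 0.11 and -0.04 with adjusted p of 0.78 and 0.89 (edgeR). In counts, 1 of 24 lipid droplet and triglyceride genes rose and 1 fell by the 2-fold rule, 2 rose and 4 fell at the adjusted p alone, and of 11 fatty acid synthesis genes 2 rose at the adjusted p alone and 0 by the 2-fold rule. Over all tested genes, 1.4% rose and 1.28% fell by the 2-fold rule, and 5.9% rose and 8.38% fell at the adjusted p alone.

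Of 11 adipokines 1 rose and 1 fell by the 2-fold rule, against 1.4% and 1.28% of all tested genes, and NAMPT (visfatin) was the one that rose. NAMPT, the rate-limiting enzyme of NAD salvage, went from 776, 830.0 and 931 to 1964, 2175 and 2247 CPM, a log2 fold change of 1.33 ± 0.090 (SE), edgeR adjusted p = 2.4e-06. At the adjusted p alone, 4 of 15 genes of insulin signalling rose and 1 fell, against 5.9% and 8.38% of all tested genes. Of the 15, only PIK3R3, a regulatory subunit of PI3-kinase, passed the 2-fold rule, with a rise of 1.69 (log2). Of 11 glucocorticoid-responsive genes 3 rose by that rule, TSC22D3 (GILZ) by 1.07, PER1 by 1.05 and PDK4, the kinase that shuts off pyruvate oxidation, by 1.12 (log2), while KLF9 rose by 0.89.

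Of 13 circadian clock genes 4 fell by the 2-fold rule, 5 at the adjusted p alone and 0 rose (1 at an unadjusted p under 0.05 in edgeR, 0 at DESeq2's adjusted p). Over all tested genes, 1.28% fell by the 2-fold rule and 8.38% at the adjusted p alone. BHLHE40 (DEC1), a repressor in the clock loop, was at 40.6, 41.1 and 47.7 CPM without LPS and 15.6, 16.1 and 19.5 CPM with it, a log2 fold change of -1.34 ± 0.11 (SE), edgeR adjusted p = 1.2e-05. CIART went from 9.44, 9.25 and 14.9 to 3.41, 5.00 and 4.22 CPM, a log2 fold change of -1.42 ± 0.22 (SE), edgeR adjusted p = 0.0012. NR1D1 (REV-ERB alpha) fell by 1.06 and PER2 by 1.05 (log2), PER2 no longer called without any 1 of 3 libraries (adjusted p up to 0.076). PER1, a clock gene that is listed here with the glucocorticoid-responsive genes, rose.

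The 203 genes that fell were led by genes of other kinds than the inflammatory ones. ZNF296, a zinc finger gene, had 81, 37 and 93 counts without LPS and 0 in all 3 LPS libraries, which puts it at least 17.1-fold lower against a floor of 3 counts per library. RGS4, which switches off G protein signalling, fell from 23.0, 30.4 and 21.9 to 1.04, 0.83 and 1.48 CPM, a log2 fold change of -4.46 ± 0.21 (SE), edgeR adjusted p = 2.2e-07. GDNF, a neurotrophic factor, fell from 10.7, 13.6 and 8.04 to 0.87, 1.70 and 0.89 CPM, a log2 fold change of -3.25 ± 0.29 (SE), edgeR adjusted p = 2.0e-05. In RGS4 the highest LPS library was over 10-fold below the lowest library without LPS. XIRP1, an actin-binding protein of striated muscle, fell from 15.6, 20.5 and 10.9 to 1.59, 1.15 and 2.44 CPM, a log2 fold change of -3.16 ± 0.29 (SE), edgeR adjusted p = 2.1e-05, and FAM180A from 87.1, 102 and 60.7 to 9.78, 11.5 and 12.4 CPM, a log2 fold change of -2.89 ± 0.18 (SE), edgeR adjusted p = 1.0e-06. The semaphorin SEMA7A fell by 2.40, the phospholipid flippase ATP8B1 by 2.99 and DPF3, a chromatin remodeller subunit, by 3.14 (log2), with DPF3 at -3.91 without scramble_LPS replicate 1. SHROOM3, ADAMTS8 and UCN2 (urocortin 2) fell by 3.64, 2.35 and 2.25 (log2) at under 4 CPM, and each call was lost without scramble replicate 2 (adjusted p 0.059, 0.081 and 0.071), with UCN2 also lost without scramble replicate 3 (0.11) and scramble_LPS replicate 3 (0.052).

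**Figure D3:**
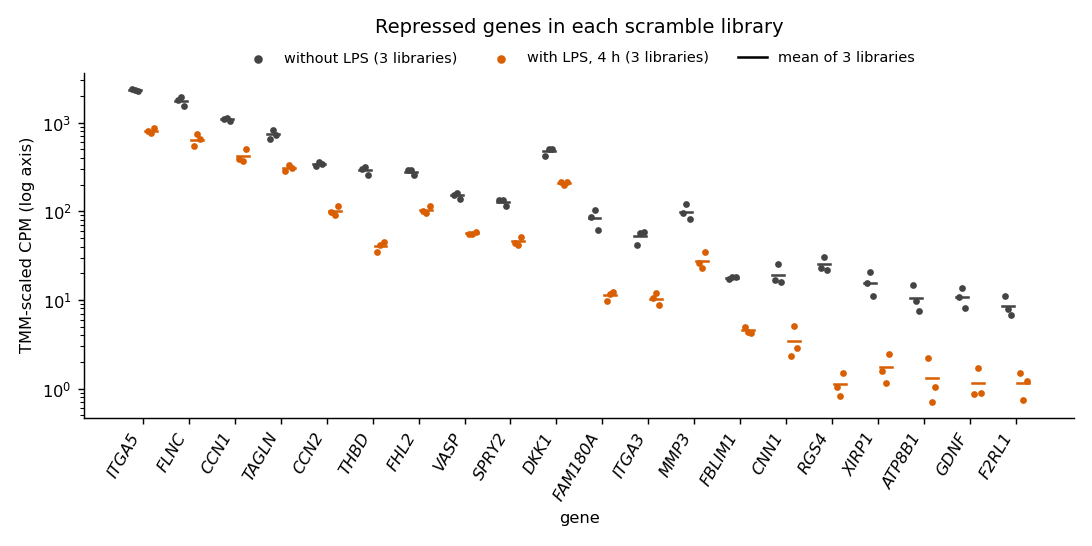
TMM-scaled CPM on a log axis for genes that fell, with 1 point for each of the 3 libraries without LPS and the 3 with LPS and a line at each group mean. The 3 LPS libraries lie below the 3 others in every gene plotted, and RGS4 has the largest fall of these genes (log2 fold change -4.46).

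Many genes of the actin cytoskeleton and of contraction fell. In a list of 56 such genes written after the values had been seen, which is therefore a description and no independent evidence, 10 fell by the 2-fold rule, 34 at the adjusted p alone, and 0 rose by either rule (0 at an unadjusted p under 0.05 in edgeR, 0 at DESeq2's adjusted p). The median log2 fold change of the 56 was -0.49, 55 of the 56 had a negative value, and in 44 every LPS library lay below every other library, against 17% of all genes tested. CNN1 (calponin), a marker of smooth muscle contraction, fell from 16.7, 25.1 and 15.7 to 2.34, 5.03 and 2.89 CPM, a log2 fold change of -2.50 ± 0.27 (SE), edgeR adjusted p = 7.9e-05. FLNC, a filamin that crosslinks actin, fell from 1807, 1937 and 1521 to 543, 741 and 647 CPM, a log2 fold change of -1.45 ± 0.12 (SE), edgeR adjusted p = 1.2e-05. TAGLN (transgelin) fell from 661, 825 and 727 to 284, 331 and 309 CPM, a log2 fold change of -1.26 ± 0.096 (SE), edgeR adjusted p = 5.7e-06. The groups were clear of each other in all 3. Of the focal adhesion genes in the list, FBLIM1 fell by 1.96, FHL3 by 1.45, VASP by 1.42, TGFB1I1 (Hic-5) by 1.26 and ZYX (zyxin) by 0.99 (log2). The actin oxidase MICAL2 fell by 1.33, SMTN (smoothelin) by 1.22 and TPM1 (tropomyosin) by 0.85 (log2). ACTB, often used as a reference gene, fell from 4992, 5077 and 4306 to 2843, 3001 and 3106 CPM, a log2 fold change of -0.68 ± 0.084 (SE), edgeR adjusted p = 0.00021, and ACTG1 fell by 0.71, whereas GAPDH had a log2 fold change of 0.03 ± 0.092 (SE), edgeR adjusted p = 0.89.

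Actin genes are known targets of SRF, a factor that binds the CArG box, and matrix and growth genes of YAP and TAZ. In a list of 24 genes of these pathways, also written after the values had been seen, 2 fell by the 2-fold rule, 14 fell and 1 rose at the adjusted p alone. Over all tested genes, 1.28% fell by the 2-fold rule, and 8.38% fell and 5.9% rose at the adjusted p alone. CCN2 (connective tissue growth factor) was at 323, 355 and 341 CPM without LPS and 97.3, 90.8 and 114 CPM with it, a log2 fold change of -1.75 ± 0.094 (SE), edgeR adjusted p = 4.5e-07. CCN1 (CYR61) fell by 1.38 (log2), and SRF and the cofactor VGLL3 by 0.75 and 0.93. The CArG box, searched on both strands and added after the values had been seen, occurred in 0 of the 177 windows of genes that rose, in 3 of 152 of genes that fell (1.97%) and in 141 of all 11860 (1.19%). The 3 were FHL2, FILIP1L and TCF7, and FHL2, a LIM protein of focal adhesions that fell from 289.8, 289 and 258 to 99.4, 96.7 and 116 CPM (log2 fold change -1.42), is shown as the example with the match in capitals (chr2:105438570-105438649, minus strand, GRCh38.p14).
FHL2: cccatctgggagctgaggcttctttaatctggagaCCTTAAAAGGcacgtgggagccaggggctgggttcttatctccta

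Integrins, the matrix receptors that anchor actin, fell in 3 and rose in 1 of 18 genes by the 2-fold rule, again on a list written after the values had been seen. By that rule 1.28% of all tested genes fell and 1.4% rose. ITGA5, the fibronectin receptor chain, went from 2422, 2331 and 2258 to 808, 759 and 859 CPM, a log2 fold change of -1.53 ± 0.078 (SE), edgeR adjusted p = 3.1e-07. ITGA3, a laminin receptor chain, fell from 42.0, 57.2 and 58.7 to 10.4, 12 and 8.70 CPM, a log2 fold change of -2.35 ± 0.15 (SE), edgeR adjusted p = 1.8e-06, and ITGA2, a collagen receptor chain, fell by 1.48 (log2). ITGB8, which activates latent TGF-beta, was the one that rose, from 1.39, 0.93 and 3.03 to 8.08, 9.84 and 11.7 CPM, a log2 fold change of 2.48 ± 0.35 (SE), edgeR adjusted p = 0.00063, or 3.08 without scramble replicate 3.

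Some genes that act in clotting and pericellular proteolysis fell. THBD (thrombomodulin), the thrombin receptor that activates protein C, was at 303, 313 and 255 CPM without LPS and 34.4, 41.1 and 45.3 CPM with LPS, a log2 fold change of -2.85 ± 0.12 (SE), edgeR adjusted p = 9.1e-08. F2RL1 (PAR2), a protease-activated receptor, fell by 2.88 (log2), and F3 (tissue factor) and THBS1 (thrombospondin 1), both under 2-fold, by 0.90 and 0.89. PLAU (urokinase), a protease that activates plasminogen, and PLAUR, the urokinase receptor, fell by 1.13 and 1.4 (log2). In counts, 3 of 12 coagulation and thrombin-response genes fell by the 2-fold rule and 6 at the adjusted p alone, with 0 rises (0 at an unadjusted p under 0.05 in edgeR, 0 at DESeq2's adjusted p), on a list written after the values had been seen. Of 21 matrix proteases and inhibitors 5 fell and 0 rose by the 2-fold rule, with 7 falls and 2 rises at the adjusted p alone. Over all tested genes, 1.28% fell and 1.4% rose by the 2-fold rule, and 8.38% fell and 5.9% rose at the adjusted p alone. MMP3 (stromelysin 1) fell from 94.8, 119 and 80.7 to 25.8, 23.0 and 34.4 CPM, a log2 fold change of -1.82 ± 0.16 (SE), edgeR adjusted p = 1.9e-05, and TIMP3, a matrix-bound inhibitor of metalloproteases, fell by 1.12 (log2).

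Among growth factors the falls outnumbered the rises. Of 24 tested, 5 fell and 1 rose by the 2-fold rule, and 8 fell and 2 rose at the adjusted p alone. Over all tested genes falls also outnumbered rises at the adjusted p alone (8.38% against 5.9%), but not by the 2-fold rule (1.28% against 1.4%). FGF1 fell from 4.52, 5.45 and 5.14 to 0.90, 1.38 and 1.46 CPM, a log2 fold change of -2.02 ± 0.26 (SE), edgeR adjusted p = 0.00027, and HBEGF, an EGF receptor ligand, by 1.73 (log2). FGF5 fell by 1.29 and VEGFA, under 2-fold, by 0.91 (log2). IGF1 was the member that rose, from 116, 76.0 and 92.5 to 224, 168 and 194 CPM, a log2 fold change of 1.04 ± 0.14 (SE), edgeR adjusted p = 0.00049. Of 30 genes of TGF-beta, BMP and Wnt signalling 2 fell by the 2-fold rule, the ligand WNT5B by 1.49 and the Wnt antagonist DKK1 by 1.20 (log2), and 4 rose and 9 fell at the adjusted p alone.

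Few matrix and proliferation genes passed the 2-fold rule, and few of all tested genes did (1.4% rose and 1.28% fell). At the adjusted p alone, 5.9% of all tested genes rose and 8.38% fell. Of 16 collagens and matrix genes 0 passed the 2-fold rule in edgeR or DESeq2 and 1 rose at the adjusted p alone, with 3 higher and 2 lower at an unadjusted p under 0.05, and of 7 hyaluronan genes only the synthase HAS1 passed that rule, with a rise of 1.17 (log2). At the adjusted p alone 2 of the 7 rose and 2 fell. Of 13 cell cycle genes 0 passed the 2-fold rule in either tool, with 1 higher and 3 lower at an unadjusted p under 0.05, and CCND1 (cyclin D1) and CDKN1A (p21) fell by 0.55 and 0.75 (log2). Of 9 mRNA decay genes 2 rose and 5 fell at the adjusted p alone, with 0 by the 2-fold rule. The ribonuclease ZC3H12A, which rose by 2.93 (log2), is listed here with the feedback inhibitors and is not among the 9. Of 10 housekeeping genes 1 rose and 1 fell at the adjusted p alone.

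**Figure D4:**
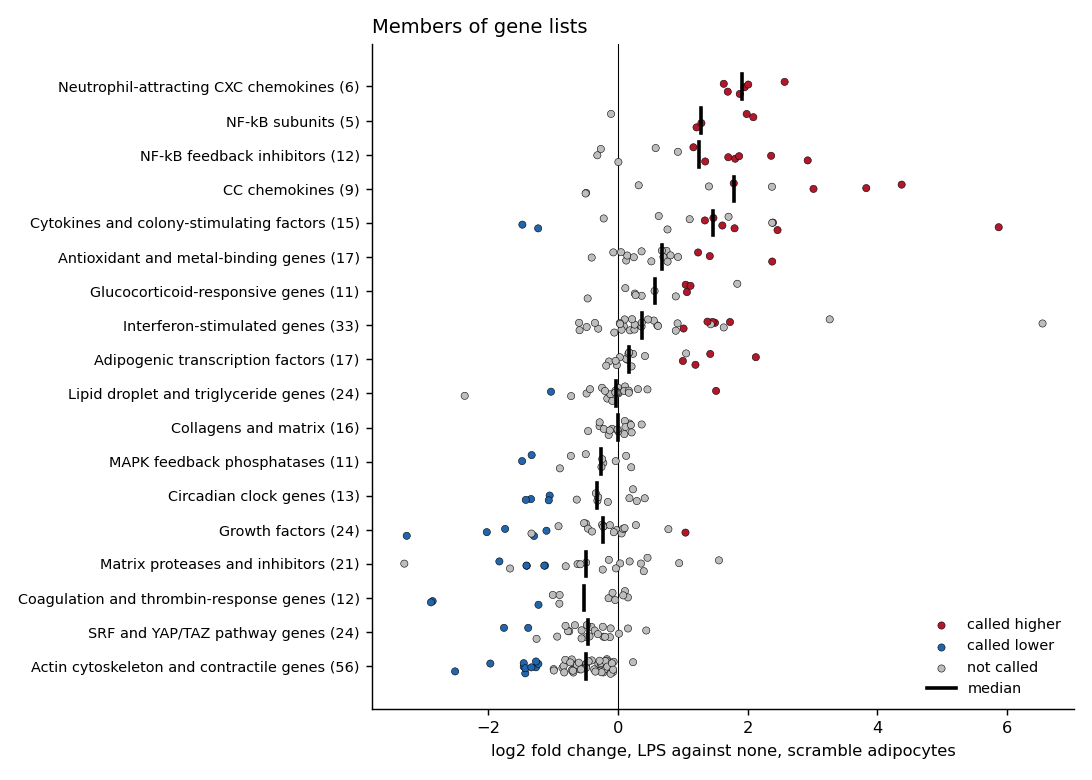
Log2 fold changes (LPS minus none) of the tested members of each gene list, with 1 point for each gene, a bar at the list's median and a line at 0, and the number of genes in brackets. The CXC chemokines have the highest median of the lists shown, 1.92, with all 6 members called, and the actin and contractile genes lie below 0 with a median of -0.49.

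Markers of other cell types gave low sums. The 6 macrophage and leukocyte markers tested summed to 56.0 to 59.6 CPM without LPS and 59.3 to 70.0 CPM with it, nearly all from CD68. The other 5 of these markers had negative log2 fold changes at under 6 CPM, and of them CD14 fell by the 2-fold rule, by 1.85 (log2), a call lost without any 1 of 5 libraries. The leukocyte marker PTPRC (CD45) was at or under 0.22 CPM in every library. The 5 endothelial markers summed to 22.7 to 26.2 CPM without LPS and 15 to 16.7 CPM with it, and 2 of them fell at the adjusted p alone. VWF fell by the 2-fold rule, from 9.18, 8.0 and 10.7 to 4.80, 4.65 and 4.26 CPM, a log2 fold change of -1.03 ± 0.17 (SE), edgeR adjusted p = 0.0016. Of the 13 subunits encoded in mitochondria, on a list written after the values had been seen, 10 rose at the adjusted p alone (5.9% of all genes). By the 2-fold rule 0 rose (1.4% of all genes). The median log2 fold change was 0.40, and 12 of the 13 lay wholly higher with LPS (15% of all genes). MT-CO1, a subunit of cytochrome oxidase, had 20522, 19213 and 24505 CPM without LPS and 28561, 27906 and 28672 CPM with it. Its log2 fold change of 0.41 passed the test (adjusted p = 0.012, edgeR), but not in every alternative (adjusted p up to 0.067). The part of these shifts in the results above was not tested.

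Some of the genes that passed the 2-fold rule rest on 1 library or a handful of counts. Of them, 11 genes that rose and 10 that fell had under 50 counts per library in the higher group or overlapping groups. The following were chosen after their values were seen. The readthrough transcript BIVM-ERCC5 had 0 counts without LPS and 4, 347 and 0 with it, and PLCG2 had 216, 83 and 116 against 194, 1994 and 129 counts. Both therefore rest on scramble_LPS replicate 2, without which PLCG2 had a log2 fold change of 0.56 (adjusted p = 0.40, edgeR). The pseudogene TMEM183BP had 0 counts without LPS and 160, 17 and 0 with it, and AMIGO3 had 0, 105 and 67 counts without LPS and 0 with it.

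The KD libraries give the same comparison in separate samples of the same experiment. The level of linc-ADAIN was not analysed here, so that the label of these libraries was not checked against it. In KD adipocytes 210 of 16169 tested genes rose (1.3%) and 153 fell (0.946%) by the 2-fold rule. Of the 223 genes that rose in scramble adipocytes, 211 had a positive log2 fold change in KD (94.6%), 146 of them with an adjusted p under 0.05 and 105 by the 2-fold rule. Those 105 are 47.1% of the scramble list and 50% of the KD list. Of the 202 genes that fell in scramble and could be tested in KD, 189 were negative in KD (93.6%), 117 of them with an adjusted p under 0.05 and 66 by the 2-fold rule, which is 32.7% of the scramble list and 43.1% of the KD list. In 0 cases did a gene pass the 2-fold rule in opposite directions. The median log2 fold change of the genes that rose was 1.43 in scramble and 1.05 in KD, and of those that fell -1.38 and -0.89, where the scramble values are the ones that chose the genes.

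**Figure D5:**
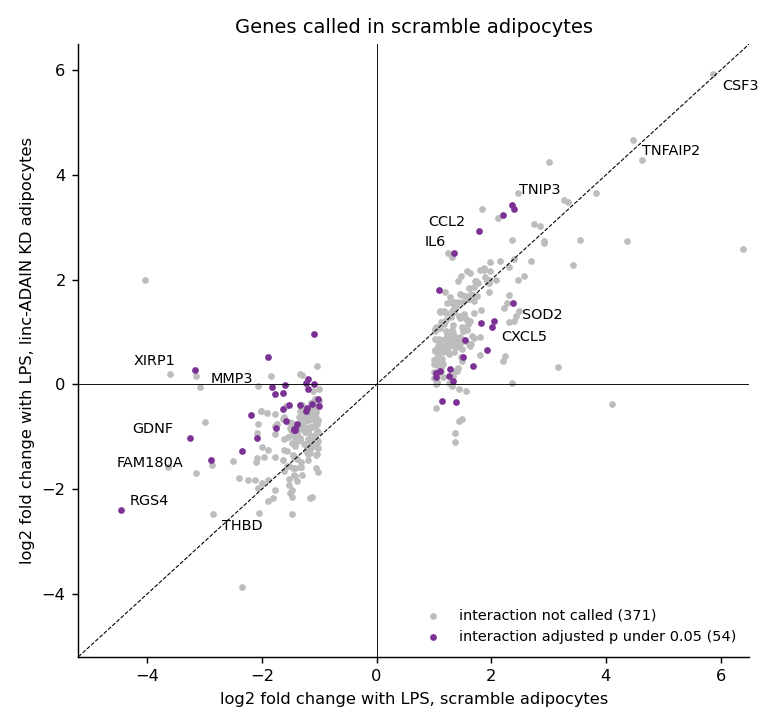
Log2 fold change with LPS in scramble adipocytes (x axis) against that in KD adipocytes (y axis) for 417 of the 425 genes that passed the 2-fold rule in scramble adipocytes and were tested in KD, with 8 outside the axes. Most points lie in the quadrants of equal sign, and genes with an adjusted p under 0.05 for the difference are marked, such as XIRP1 and MMP3.

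Whether the LPS effect itself differed between the shRNAs was tested as an interaction over all 12 libraries, where 219 of 17173 genes passed at the adjusted p (1.28%). The count was 92 without scramble replicate 2, 116 without KD_LPS replicate 3, 131 without KD replicate 1 and 136 without KD_LPS replicate 2. This test shares the scramble libraries that chose the genes, so a smaller effect in KD is partly fixed by the choice. Among the genes that rose in scramble, 16 had a lower and 6 a higher LPS effect in KD, and among those that fell, 32 had a more positive one and 0 a more negative one. Among the chemokines and cytokines, IL6 rose by 2.50 in KD against 1.34 in scramble (log2), a difference of 1.17 (SE 0.13, edgeR adjusted p for the interaction = 0.00014). CXCL5 went the other way, with 1.1 in KD against 2.01 in scramble, a difference of -0.89 (SE 0.14, adjusted p = 0.0024). SOD2 likewise rose less in KD, by 1.55 against 2.38 (difference -0.81, adjusted p = 0.00099).

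Of the genes that fell, MMP3 had a log2 fold change of -0.05 in KD (adjusted p = 0.88) against -1.82 in scramble, a difference of 1.78 (SE 0.23, adjusted p = 0.00062, edgeR). XIRP1 had 0.27 against -3.16, a difference of 3.45 (SE 0.38, adjusted p = 0.00014). NEDD9, a focal adhesion scaffold, had -0.02 against -1.59, UBASH3B, a tyrosine phosphatase, -0.09 against -1.20, and FAM180A -1.44 against -2.89. Among genes that rose, NABP1, a single-stranded DNA binding protein, had 0.15 in KD against 1.26 in scramble, and the transcription factor SIM1 0.66 against 1.92, both with a difference past the test. CCL19 had a log2 fold change of -0.38 in KD (adjusted p = 0.94) and ZNF296 of -0.96 (0.82), but for neither did the difference pass the test (adjusted p = 0.31 and 0.22).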

How the data were processed

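RNA was extracted from 12 cultures with Trizol and columns and made into stranded poly(A) libraries. Per the submitters' processing notes, reads were demultiplexed with bcl2fastq 2.19 and assigned to transcripts of GRCh38 with kallisto 0.44.0, and the authors used DESeq2 1.32.0. The deposited values are the authors' estimated counts per gene name, already whole numbers, not normalized for depth or length. The annotation release and the step that summed transcripts are not given in the sources used here. The unnamed row took 0.235% to 0.275% of each scramble library and was left out. Kallisto divides reads shared by similar transcripts, so paralogs and readthrough genes are less certain.

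Groups were taken from the labels. In R 4.3.3, a gene entered a fit when its counts there summed to 10 or more, which held for 15920 of 28901 names for LPS in scramble. Each gene was tested in edgeR 4.0.16 after TMM scaling, with the quasi-likelihood F test and Benjamini-Hochberg adjustment. Standard errors are the log2 fold change divided by the square root of F. Genes were counted as changed at an adjusted p under 0.05 and at least 2-fold. LPS in KD was fitted on its own 6 libraries, and the interaction on all 12. A gene was named if it was among the 15 largest rises or falls with a mean of 50 or more counts in the higher group and no overlap between groups, if it was in a gene list, or if it was among the 10 smallest interaction p of genes changed in scramble. The comparison, members and lists were chosen with earlier results of these data known. The lists of actin, SRF and YAP/TAZ, integrin, coagulation and mitochondrially encoded genes, and the CArG box, were added after the values were seen, and so was thinning all libraries to 31.5 M counts. Other scalings, other filters, DESeq2 1.42.0, a fit on all 12 libraries, a test against 2-fold, a replicate block and leaving out each library were alternatives. On simulated data for LPS in scramble, edgeR recovered 100% of 200 changed genes among 15716, with 2.44% false calls, and DESeq2 100% with 6.10%. In the simulated interaction among 16971 genes the shares recovered were 99.5% by edgeR and 99% by DESeq2, and 3.86% and 12.8% of calls were false. In both simulations only genes with a mean of 50 or more counts were changed, all by more than 2-fold. The same spread was given to every gene. These shares therefore do not cover genes with low counts, smaller changes or genes that rest on 1 library. Promoters are RefSeq windows on GRCh38.p14. Counting error and the spread between libraries set the precision, and at these depths a gene under about 1 CPM is limited by its counts. Some genes that the naming rule covers are not reported here.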

Additional observations from a re-analysis of the deposited data

Results flagged for a closer look

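The following genes had an LPS effect that differed between KD and scramble adipocytes by the interaction test of edgeR over 12 libraries, given as the effect in KD minus the effect in scramble on the log2 scale. Genes changed in scramble were used to choose many of them, so the direction of their difference is partly fixed by that choice.

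Among inflammatory genes, the LPS effect was larger in KD for IL6 (1.17), CCL2 (1.15), TNIP3 (1.07), CFB (1.03) and PTGS2 (0.96), and smaller for CXCL5 (-0.89) and SOD2 (-0.81). TLR4, which fell in scramble, had a difference of 1.09 and a log2 fold change of 0.23 in KD. The nuclear receptor NR4A1 (-0.98), IGF1 (-0.90), NABP1 (-1.09) and SIM1 (-1.25) rose in scramble and had smaller effects in KD. GPAM, the triglyceride synthesis enzyme, rose in scramble and fell in KD (difference -1.05).

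Among genes that fell in scramble, the difference was 3.45 for XIRP1, 2.24 for GDNF, 2.07 for RGS4, 1.78 for MMP3, 1.58 for NEDD9, 1.47 for FAM180A, 1.13 for UBASH3B, 1.09 for ITGA3 and 0.96 for BHLHE40. The difference passed the test in 5 of 56 actin and contractile genes and in 5 of 24 genes of the SRF and YAP/TAZ pathways. Over all genes tested for it, 1.28% passed, and both lists were written after the values had been seen. Further positive differences were 1.03 for VGLL3, 0.94 for CCN2, 0.73 for THBS1, 0.73 for SMTN, 0.58 for VASP, 0.57 for TNFRSF12A and 0.56 for FHL2. VGLL3 had a log2 fold change of 0.09 in KD (adjusted p = 0.60) and THBS1 of -0.17 (0.096).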

How the results depend on the processing

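The counts of 223 genes that rose and 203 that fell stayed within 1.5 times under another scaling, other filters, DESeq2, all 12 libraries, thinning and each library left out, at 180 to 237 and 151 to 211 in the last case, and falls outnumbered rises with library size alone (205 and 227), without scramble_LPS replicate 2 (200 and 211) and without scramble_LPS replicate 3 (196 and 200). A test against 2-fold itself left 77 and 45, since it asks more than a 2-fold estimate. The counts at the adjusted p alone, 940 and 1334, ranged from 474 to 855 and from 713 to 1251 with a library left out. They were lowest without scramble replicate 2, at 474 and 713, and the first was 558 without scramble_LPS replicate 3. Whether the replicate numbers pair the libraries could not be settled. Correlations of deviations were 0.062, 0.021 and -0.014 for libraries of equal number and -0.054 to 0.030 for the others. The replicate block gave 241 and 232, and 1447 and 1813 at the adjusted p alone. The 219 interaction genes became 431 with no filter, 475 with DESeq2, 231 with the replicate block and 92 to 243 with a library left out, lowest without scramble replicate 2 (92), KD_LPS replicate 3 (116), KD replicate 1 (131) and KD_LPS replicate 2 (136). The causes were not tested. Of 181 named genes, 161 had an adjusted p under 0.05, 0 of them reversed, and 16 lost it with some library left out.

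Sign changes occurred in 6 genes that did not pass the test. With library size only, FABP4 was -0.033 and GAPDH -0.012, and with all 12 libraries FABP4 was -0.0074. With a library left out, FABP4 ranged from -0.068 to 0.11, GAPDH from -0.033 to 0.12, PLIN1 from -0.092 to 0.38, LIPE from -0.17 to 0.075, RELA from -0.23 to 0.027 and THY1 from -0.087 to 0.061. ADIPOQ passed the test under the block (adjusted p = 0.0061) and without scramble replicate 3 (0.028), C3 under the block (0.011), and CXCL10 and RSAD2 with all 12 libraries (0.035 and 0.018). Genes under about 1 CPM are limited by depth.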
